A study of Mus musculus with 24 samples.

Results

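The proteasome genes were followed through mouse preimplantation embryos in which MERVL transcripts had been depleted. They were taken as every gene row of the RNA count files whose symbol starts with Psm, one of the letters a to g and a digit, leaving out names marked as pseudogenes, which gave 50 genes among 55291. By role they comprise 8 genes of the 20S alpha ring, 7 of the 20S beta ring, 4 immunoproteasome and thymoproteasome beta subunits, 6 ATPases and 11 non-ATPase subunits of the 19S particle, 3 chaperones of the 19S base, 5 activator genes, 1 inhibitor, 4 chaperones of 20S assembly, and Psmc3ip. Psmc3ip fits the name rule, but encodes a cofactor of meiotic recombination and not a proteasome subunit.

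MERVL is an endogenous retrovirus that is transcribed at high level in 2C embryos. BDF1 (B6D2F1) zygotes from 8-week-old mice received either a mixture of 3 antisense oligonucleotides (ASOs) against MERVL (MERVL-KD) or a scrambled control ASO (Ctrl), at 20 µM, by injection into the male pronucleus, and were cultured to the two-cell (2C), four-cell (4C) and eight-cell (8C) stages. The strain field of the sample labels reads BDF2. Each library was made from the total RNA of 30 embryos freed of the zona pellucida, with 2 libraries in each of 6 groups and 12 libraries in all. The labels give 2.5 days post-coitum for both 4C and 8C embryos, so these stages rest on the sample titles. Every embryo, control or MERVL-KD, had been injected, and uninjected embryos are not among these libraries. The study describes the libraries of a group as biological replicates. Whether they came from separate matings or injection days is not given in the sources used here, so p-values measure the spread between these samples.

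The 26S proteasome degrades proteins that carry ubiquitin chains. Its 20S core is a barrel of alpha and beta rings with the proteolytic sites on the inner face of the beta rings, and the 19S particle that caps it recognises the chain, removes it and threads the substrate through a ring of ATPases. Other caps replace the 19S particle: PA28αβ (Psme1 and Psme2), PA28γ (Psme3) and PA200 (Psme4), which open the core without ATP. Maternal proteins are broken down through this pathway after fertilization while the embryo passes from maternal to zygotic transcripts, and the transcription factor encoded by Nfe2l1 is known to raise the subunit genes together when proteasome activity falls.

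Totals ranged from 28167085 to 41482526 counts per library, of which 15.8% to 25.2% fell on repeat families. Counts of the MERVL internal part made up 6.33% and 6.57% of the total in Ctrl 2C embryos and 0.157% and 0.143% in MERVL-KD 2C embryos, and MERVL-KD was also lower at 4C (0.0544% and 0.0331% against 2.07% and 1.78%) and at 8C (0.0278% in both libraries against 1.07% and 1.08%). The 5 oocyte marker genes summed to 1006 and 1064 CPM (counts scaled to library size) in Ctrl 2C embryos and to 627 to 721 CPM in MERVL-KD 2C embryos, and to between 62.9 and 89.1 CPM in every 4C and 8C library. The 6 markers of the 2C stage summed to 772 to 801 CPM in Ctrl 2C and 456 to 520 CPM in MERVL-KD 2C embryos, and to 574 to 830 CPM at the later stages, where Dppa2 (483 to 745 CPM) made up most of the sum. From 2C to 4C in control embryos Zscan4c, Zscan4d, Zfp352 and Usp17lc fell (log2 fold changes -7.56, -5.63, -4.19 and -5.15), Dppa2 rose (1.91) and Tdpoz4 was not called (0.02). The 7 markers of 8C embryos and morulae summed to 316 to 377 CPM in Ctrl 2C and 287 to 295 CPM in MERVL-KD 2C embryos, to 602 to 630 against 551 to 565 CPM at 4C and to 775 to 800 against 599 to 605 CPM at 8C. The 10 cumulus and granulosa markers summed to 2.32 to 6.36 CPM in all libraries, the 3 sperm markers to 0.139 to 1.40 CPM and the 3 blood markers to 0.539 to 8.15 CPM, with the highest value in a MERVL-KD 4C library.

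CPM values, above and below, are scaled by trimmed mean of M values (TMM) over the 12 libraries and not by library size alone. RPKM divides them further by the exon length in kilobases, so that only RPKM is used to set 1 gene beside another. Differences are log2 fold changes of edgeR's quasi-likelihood test with their standard errors (SE). A gene is called changed at a Benjamini-Hochberg adjusted p under 0.05 over all genes and repeat families tested. Counts of members at an unadjusted p under 0.05 are given below without a share over all genes, which was not counted. Counts of members called under alternative settings also stand without a share over all genes, and show only how stable a count was. CPM and RPKM are relative to the other RNA of a library and not absolute amounts. A lower value can mean less RNA of the gene per cell, RNA in fewer of the cells, or more of other RNA. The libraries cannot tell these apart.

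The upstream sequences of 4 members with called differences are shown first. They were not picked by the size of the difference, and members with larger rises, such as Psma7 and Psme1, are not shown. The sequences are from RefSeq on build GRCm38.p6, as the 250 bases before the transcription start, 5′ to 3′ on the gene's strand. Capitals mark TGACNNNGC (N, any base), the core of the antioxidant response element through which Nfe2l1 and its relatives act, and CCAAT, the box bound by NF-Y, on either strand. Psmb6, a beta subunit with a proteolytic site, was 1 of the subunits that rose from 2C to 4C. It holds TGACNNNGC in the last 9 bases before its start (chr11:70525107-70525356, plus strand). Of the 28 members called higher from 2C to 4C that had a matched promoter, 4 held this motif in the wider window described below. Psmd9, a chaperone that was lower in MERVL-KD 4C embryos, holds it 31 to 23 bases before the start (chr5:123227940-123228189, plus strand). Psmc1, an ATPase that was lower in MERVL-KD 2C embryos, holds CCAAT 175 to 171 bases before the start (chr12:100109952-100110201, plus strand). Psme4, the activator with the largest fall, holds neither in this window (chr11:30771525-30771774, plus strand). TGACNNNGC was found in Psme4 when the 50 bases after the start were added.
Psmb6: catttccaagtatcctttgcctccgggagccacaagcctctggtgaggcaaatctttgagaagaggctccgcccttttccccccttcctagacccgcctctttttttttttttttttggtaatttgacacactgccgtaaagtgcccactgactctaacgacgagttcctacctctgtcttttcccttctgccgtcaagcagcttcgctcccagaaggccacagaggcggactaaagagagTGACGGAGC
Psmd9: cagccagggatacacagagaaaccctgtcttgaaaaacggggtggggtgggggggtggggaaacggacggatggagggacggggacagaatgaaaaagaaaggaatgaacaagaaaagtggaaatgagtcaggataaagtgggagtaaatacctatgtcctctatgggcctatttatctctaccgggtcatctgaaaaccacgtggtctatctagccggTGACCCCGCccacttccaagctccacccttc
Psmc1: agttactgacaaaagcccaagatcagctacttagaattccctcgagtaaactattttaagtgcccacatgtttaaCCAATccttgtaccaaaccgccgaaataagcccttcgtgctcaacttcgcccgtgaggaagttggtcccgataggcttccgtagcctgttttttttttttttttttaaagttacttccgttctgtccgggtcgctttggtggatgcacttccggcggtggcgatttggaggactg
Psme4: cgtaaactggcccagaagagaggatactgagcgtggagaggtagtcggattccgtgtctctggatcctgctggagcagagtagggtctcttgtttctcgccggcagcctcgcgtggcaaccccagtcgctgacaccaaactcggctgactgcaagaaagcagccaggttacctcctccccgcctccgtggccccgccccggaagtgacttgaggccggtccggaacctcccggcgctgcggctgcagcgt

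RefSeq promoters, counted from 250 bases before to 50 bases after the start, were matched for 42 of the 50 members. Psma8, Psmb1, Psmb2, Psmb7, Psmc3, Psmd3, Psmd7 and Psmg2 were not matched. TGACNNNGC, on either strand, was found in 6 of the 42 (14.3%) and in 14.0% of 27025 promoters. CCAAT was found in 15 of 42 (35.7%) against 41.1% and the GC box CCGCCC in 23 of 42 (54.8%) against 38.2%, each on either strand. A match here is a description of the letters in the window and not evidence of binding.

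Transcripts of the proteasome core took a smaller share of the libraries at 2C and a several times larger one from 4C onwards. A pair of alternative activators ran the other way. The 31 core subunits of the 26S particle without the testis subunit Psma8 summed to 950 and 1047 CPM in Ctrl 2C embryos, to 3218 and 3128 CPM in Ctrl 4C embryos and to 3991 and 4039 CPM in Ctrl 8C embryos. In MERVL-KD embryos the same sums were 954 and 880 CPM at 2C, 3096 and 3131 CPM at 4C and 3530 and 3763 CPM at 8C. The 3 stages did not overlap in either treatment. Together the 50 members took up 0.315% to 0.347% of gene counts at 2C, 0.462% to 0.486% at 4C and 0.499% to 0.516% at 8C.

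**Figure D1:**
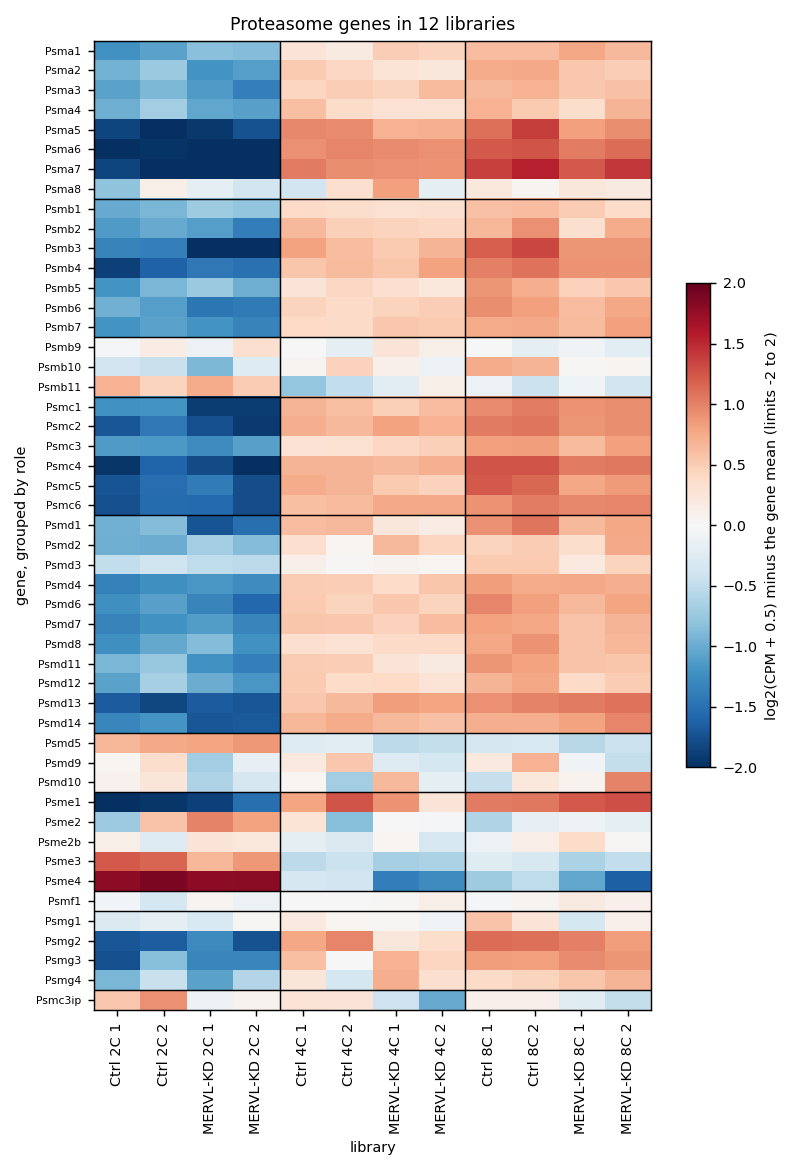
Level of 49 proteasome genes (rows, grouped by role; Psmb8 is left out for near-zero counts) in the 12 libraries (columns), as log2(CPM + 0.5) minus the mean of the gene over the libraries, with colours limited to -2 and 2. Blue rows of the alpha, beta and 19S groups at 2C turn red at 4C and 8C, while Psme4, Psme3 and Psmd5 are red at 2C.

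From 2C to 4C in control embryos, 49 of the 50 members could be tested. Of these, 35 were higher at 4C (26.4% of all 24040 genes tested were called higher) and 33 by at least 2-fold (background 20.7%). Another 5 were lower (background 28.7%), 3 of them by at least 2-fold (background 24.3%). The median log2 fold change of the tested members was 1.45, beside -0.06 over all genes. All 31 core subunits other than Psma8 rose.

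In the alpha ring, which gates the core, Psma7 showed the largest rise. Its level was 11.6 and 8.53 CPM in Ctrl 2C, 87.8 and 81.4 CPM in Ctrl 4C and 110 and 126 CPM in Ctrl 8C embryos. Both 4C libraries lay far above both 2C libraries (log2 fold change 3.07, SE 0.17, 8.42-fold, adjusted p = 1.19e-11). Psma6 and Psma5 rose by 3.06 (SE 0.12) and 3.01 (SE 0.16) on the log2 scale, and Psma1 to Psma4 by 1.32 to 1.45.

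Psma6 was the member with the highest RPKM at 4C and 8C. It had 17.0 and 20.5 CPM at 2C, 154 and 160 CPM at 4C and 190 and 195 CPM at 8C in control embryos, which in RPKM are means of 15.2, 127 and 156. Per length it ranked 12th at 2C among the members and first thereafter. At 4C its mean was followed by Psmd7 (123 RPKM) and Psmd4 (98.7 RPKM), a ubiquitin-chain receptor of the 19S particle.

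In the beta ring, Psmb4 showed the largest rise, from 10.4 and 12.5 CPM at 2C to 58.1 and 61.0 CPM at 4C and 79.3 and 83.8 CPM at 8C in control embryos (2C to 4C log2 fold change 2.38, SE 0.14, adjusted p = 2.41e-12). The groups were well separated at each step. The catalytic subunits Psmb5, Psmb6 and Psmb7, which carry the chymotrypsin-like, caspase-like and trypsin-like sites, rose by 1.45 (SE 0.19), 1.48 (SE 0.13) and 1.56 (SE 0.14) on the log2 scale.

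Among the ATPases that unfold substrates, Psmc4 showed the largest rise, from 11.6 and 14.8 CPM at 2C to 74.1 and 73.7 CPM at 4C and 111 in both libraries at 8C (log2 fold change 2.48 from 2C to 4C, SE 0.13, adjusted p = 7.97e-13). All 6 ATPases rose, with log2 fold changes between 1.46 and 2.48. Among the non-ATPase subunits, Psmd13 showed the largest, from 10.3 and 9.17 CPM at 2C to 49.5 and 53.3 CPM at 4C and 64.3 and 67.6 CPM at 8C (2.40 on the log2 scale, SE 0.13, adjusted p = 1.11e-12). All 11 rose. The smallest rise was that of Psmd3, a scaffold subunit of the 19S lid, at 0.51 (SE 0.10, adjusted p = 0.00027), and Psmd14, the deubiquitinase of the lid, rose by 1.95 (SE 0.11).

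The alternative activators went different ways. Psme4 encodes PA200, which is known for roles in histone degradation. It stood at 1094 and 1168 CPM in Ctrl 2C embryos, 249 and 241 CPM in Ctrl 4C and 192 and 221 CPM in Ctrl 8C embryos. The 2C libraries were far above the rest, and the fall from 2C to 4C was -2.21 on the log2 scale (SE 0.14, 4.61-fold lower, adjusted p = 1.94e-10). In mean RPKM it was the most abundant member at 2C (135) and ranked 19th at 4C (29.2).

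Psme4 alone accounted for 42.3% to 45.1% of all member counts in the 2C libraries of both treatments. This share is not corrected for length, and Psme4 has the longest exons of the members (8382 bases), so its share of transcripts is smaller. At 4C its share was 6.56% and 6.63% in control embryos.

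Psme3, which encodes the nuclear activator PA28γ, was the second most abundant member per length at 2C, with 109 RPKM. It fell from 328 and 317 CPM at 2C to 97.9 and 105 CPM at 4C and stood at 118 and 113 CPM at 8C (2C to 4C log2 fold change -1.67, SE 0.10, adjusted p = 7.31e-12). Psme1, a subunit of the cytoplasmic activator PA28αβ, went up from 1.59 and 2.56 CPM at 2C to 19.9 and 27.5 CPM at 4C and 23.8 and 23.9 CPM at 8C (log2 fold change 3.50, SE 0.27, 11.3-fold, adjusted p = 3.64e-10). Its partner Psme2 did not pass the test (-0.29, SE 0.44), and its control libraries held 1.79 and 5.15 CPM at 2C and 4.06 and 1.60 CPM at 4C, a spread wider than the difference between the stages.

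Of the chaperones that assemble the 19S base, Psmd5 fell from 85.6 and 91.4 CPM at 2C to 45.1 and 46.2 CPM at 4C and 42.4 and 43.5 CPM at 8C (2C to 4C log2 fold change -0.95, SE 0.11, adjusted p = 2.45e-07). The 2C libraries were both above all later control libraries. Psmd9 (0.18, SE 0.21) and Psmd10 (-0.52, SE 0.44) did not pass the test. Among the 20S chaperones, Psmg2 showed the largest rise, from 1.47 and 1.54 CPM at 2C to 10.4 and 12.2 CPM at 4C and 13.4 and 13.2 CPM at 8C (2.90 on the log2 scale, SE 0.26, adjusted p = 4.22e-09). Psmg3 rose by 1.91 (SE 0.38), whereas Psmg1 (0.38, SE 0.22) and Psmg4 (0.78, SE 0.39) did not pass. The inhibitor Psmf1 ranged only from 12.7 to 18.6 CPM over all 12 libraries.

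**Figure D2:**
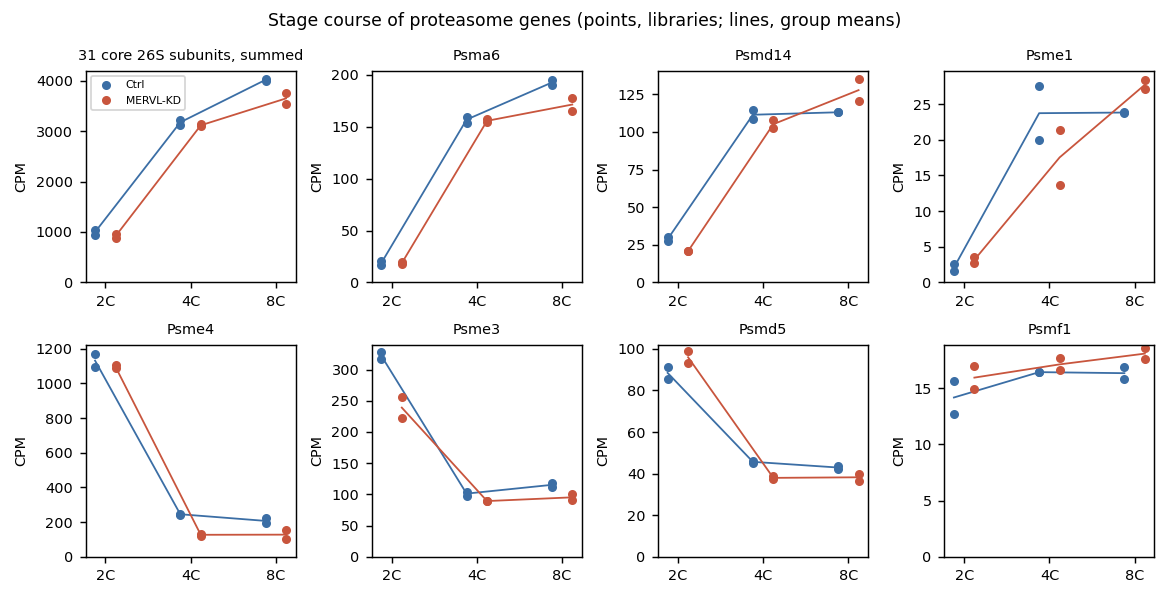
CPM (vertical axes, from 0) of the 31 summed core subunits and of 7 single genes at 2C, 4C and 8C in control (blue) and MERVL-KD (red) embryos. Points are libraries and lines join the means of 2 libraries; the core sum, Psma6, Psmd14 and Psme1 go up after 2C, Psme4, Psme3 and Psmd5 go down, and Psmf1 stays between 12.7 and 18.6.

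Several subunits of specialised proteasomes had few counts. Psmb8, an immunoproteasome subunit that was tested in no comparison, had 0 and 4 counts in Ctrl 2C, 6 and 22 in MERVL-KD 2C, 0 and 8 in Ctrl 4C, 0 and 4 in MERVL-KD 4C, 0 and 6 in Ctrl 8C and 2 and 0 in MERVL-KD 8C embryos. Psmb9, another, had 4 and 8 counts in Ctrl 2C, 4 and 11 in MERVL-KD 2C, 5 and 2 in Ctrl 4C, 10 and 7 in MERVL-KD 4C, 4 and 2 in Ctrl 8C and 4 and 2 in MERVL-KD 8C embryos. At such counts no difference between groups was detectable. Psma8, of the spermatoproteasome, had 0 and 16 counts in Ctrl 2C, 11 and 6 in MERVL-KD 2C, 6 and 17 in Ctrl 4C, 38 and 9 in MERVL-KD 4C, 14 and 12 in Ctrl 8C and 18 and 19 in MERVL-KD 8C embryos, and its spread (SE 1.13 for the 2C to 4C difference of 0.73) was too wide to show a change. Psmb10, the third immunoproteasome subunit, had 93 to 228 counts per library and was tested throughout. It stood at 3.38 and 3.22 CPM in Ctrl 2C, 4.74 and 6.50 CPM in Ctrl 4C and 8.02 and 7.64 CPM in Ctrl 8C embryos (2C to 4C log2 fold change 0.76, SE 0.30, adjusted p = 0.0379). This call ended without either Ctrl 2C library or without Ctrl 4C replicate 2 (adjusted p = 0.123, 0.148 and 0.294) and under DESeq2 (0.0628). Psmb11, of the thymoproteasome, went from 1.91 and 1.51 CPM at 2C to 0.369 and 0.556 CPM at 4C and 0.871 and 0.603 CPM at 8C (-1.89 from 2C to 4C, SE 0.57, adjusted p = 0.00765), a change in counts of 60 and 55 to 13 and 16 that lost its call without Ctrl 2C replicate 1 (adjusted p = 0.0527) or Ctrl 4C replicate 1 (0.0817). In MERVL-KD embryos Psmb11 stood at 2.00 and 1.61 CPM at 2C, 0.769 and 1.11 CPM at 4C and 0.895 and 0.641 CPM at 8C, and it was not called against control at any stage. Psme2b, a gene similar to Psme2, had 2 to 14 counts.

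The recombination cofactor Psmc3ip went from 52.9 and 68.3 CPM in Ctrl 2C to 44.0 and 43.3 CPM in Ctrl 4C and 38.9 and 39.0 CPM in Ctrl 8C embryos (2C to 4C log2 fold change -0.48, SE 0.17, adjusted p = 0.0223), and without Ctrl 2C replicate 2 the difference was -0.28 (adjusted p = 0.286). It also lost its call without either Ctrl 4C library (adjusted p = 0.0716 and 0.0824). Its exons overlap those of Mlx on the other strand over 21.2% of their length, and since the strand setting of the counting is not given in the sources used here, reads there cannot be assigned.

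In MERVL-KD embryos, 35 of 49 tested members were higher at 4C than at 2C (27.1% of all genes), 34 of them by at least 2-fold (21.2%), and 4 were lower (27.3%), 3 by at least 2-fold (23.0%). The median of the members was 1.64, beside -0.06 over all genes. Psme4 went down further than in controls, by -3.11 on the log2 scale (SE 0.14), or 8.65-fold lower. Psmd5 (-1.34, SE 0.11), Psme3 (-1.42, SE 0.10) and Psmc3ip (-0.68, SE 0.17) were the other members that fell.

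From 4C to 8C changes were small. This contrast shares the 4C libraries with the one before it, so the steps are not independent. In control embryos 12 of 49 members were higher (background 3.19%) and 0 lower (2.68%), and no called member reached 2-fold (1.56%). Their median was 0.31, beside -0.01 over all genes, with the largest called rise in Psmc4 (0.58, SE 0.12, adjusted p = 0.00627), followed by Psmb3 (0.56, SE 0.14), Psmc3 and Psmd8 (both 0.53, SE 0.12 and 0.11). The number of calls was unstable: leaving out any 1 of the 4 libraries left 0 to 2 calls, DESeq2 gave 23, and scaling by library size alone, which moved the median of all genes to -0.21, gave 0. In MERVL-KD embryos 3 members were higher from 4C to 8C (background 2.27%), Psmd1 (0.53, SE 0.11), Psmc1 (0.37, SE 0.10) and Psmd11 (0.35, SE 0.10), and 0 were lower by edgeR (2.41%) or DESeq2, with 14 of 49 at an unadjusted p under 0.05 in either direction and no called member at 2-fold (1.64%). Of these, Psmd1 lost its call only without MERVL-KD 8C replicate 2 (adjusted p = 0.0557), Psmc1 without 3 of the 4 libraries (0.0922 to 0.254) and Psmd11 without any 1 of them (0.0955 to 0.143).

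At 2C most of the proteasome genes had no called difference between MERVL-KD and control embryos, and the number called lower depended on the scaling. Of 48 tested members 6 were lower in MERVL-KD (background 7.39% of 20604 genes), among them 1 ATPase, 2 non-ATPase subunits, 1 beta subunit and 1 activator, and none was higher by edgeR (background 6.70%) or DESeq2. Without regard to multiple testing, 16 had p under 0.05 in either direction. No called member differed by 2-fold (background 6.61% of all genes called at 2-fold). The median was 0.03 over the tested members and 0.01 over all genes.

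Psmc1, an ATPase of the 19S base, stood at 37.0 and 37.4 CPM in Ctrl 2C and 22.8 CPM in both MERVL-KD 2C libraries. The groups did not overlap, and the difference was -0.62 on the log2 scale (SE 0.13, 1.54-fold lower, adjusted p = 0.00376). Over the 48 tested members, both MERVL-KD libraries lay below both controls in 18 (33.7% of all genes) and above them in 8 (23.8%).

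Psmd1, the largest scaffold subunit of the base, stood at 37.7 and 40.2 CPM in Ctrl 2C and 22.2 and 25.8 CPM in MERVL-KD 2C embryos, again without overlap (-0.62, SE 0.13, adjusted p = 0.00469). A small part of its exons is shared with other genes, 3.47% with Htr2b on the other strand and 4.14% with Gm21972 on the same strand. Psmd11, a subunit of the lid, stood at 91.6 and 103 CPM against 75.2 and 66.9 CPM (-0.37, SE 0.10, adjusted p = 0.0252), a call that ended without Ctrl 2C replicate 2 (0.136) or MERVL-KD 2C replicate 2 (0.11).

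Psmb3, a beta subunit without a proteolytic site, stood at 7.30 and 7.13 CPM in Ctrl 2C and 4.09 and 4.07 CPM in MERVL-KD 2C embryos (-0.74, SE 0.23, adjusted p = 0.0429). Its replicates were close and the groups apart, but at this depth its call ended without any 1 of the 4 libraries (adjusted p from 0.0706 to 0.165), under DESeq2 (0.0752) and with the replicate number as a block (0.0625). Psme3 stood at 328 and 317 CPM against 222 and 256 CPM (-0.35, SE 0.09, adjusted p = 0.015) and lost its call without MERVL-KD 2C replicate 1 (adjusted p = 0.0845). Psmc3ip stood at 52.9 and 68.3 CPM against 33.5 and 38.1 CPM (-0.67, SE 0.13, adjusted p = 0.00223), a difference called under every alternative tried.

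Psme4 was not called at 2C, with 1094 and 1168 CPM in control and 1088 and 1103 CPM in MERVL-KD embryos (0.04, SE 0.07, adjusted p = 0.8). Its groups overlapped.

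The directions at 2C depend on the scaling. TMM factors were 0.88 to 0.936 in Ctrl 2C and 1.16 to 1.19 in MERVL-KD 2C libraries, and with library size alone the median of all genes was 0.30 higher in MERVL-KD instead of 0.01, and that of the members 0.32. Under that scaling 13 members were called higher and 1, Psmc3ip, lower. The share of all genes called under that scaling is not given here, so the 13 are not set against a background. Psmc3ip had a log2 fold change of -0.38 (adjusted p = 0.0314), while Psmc1 and Psmd1 were at -0.33 (adjusted p = 0.0748 and 0.0795). No called member changed sign. The size factors of DESeq2 gave 6 lower and 0 higher. The summed oocyte and 2C-stage markers above, which are on the TMM scale, were lower in the same MERVL-KD 2C libraries. Of the oocyte markers only Bmp15 (-0.81) and Oosp1 (-0.32) were called lower, and Zp3 pointed the other way (0.37, adjusted p = 0.0952). The part of these markers in the differences was not tested.

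**Figure D3:**
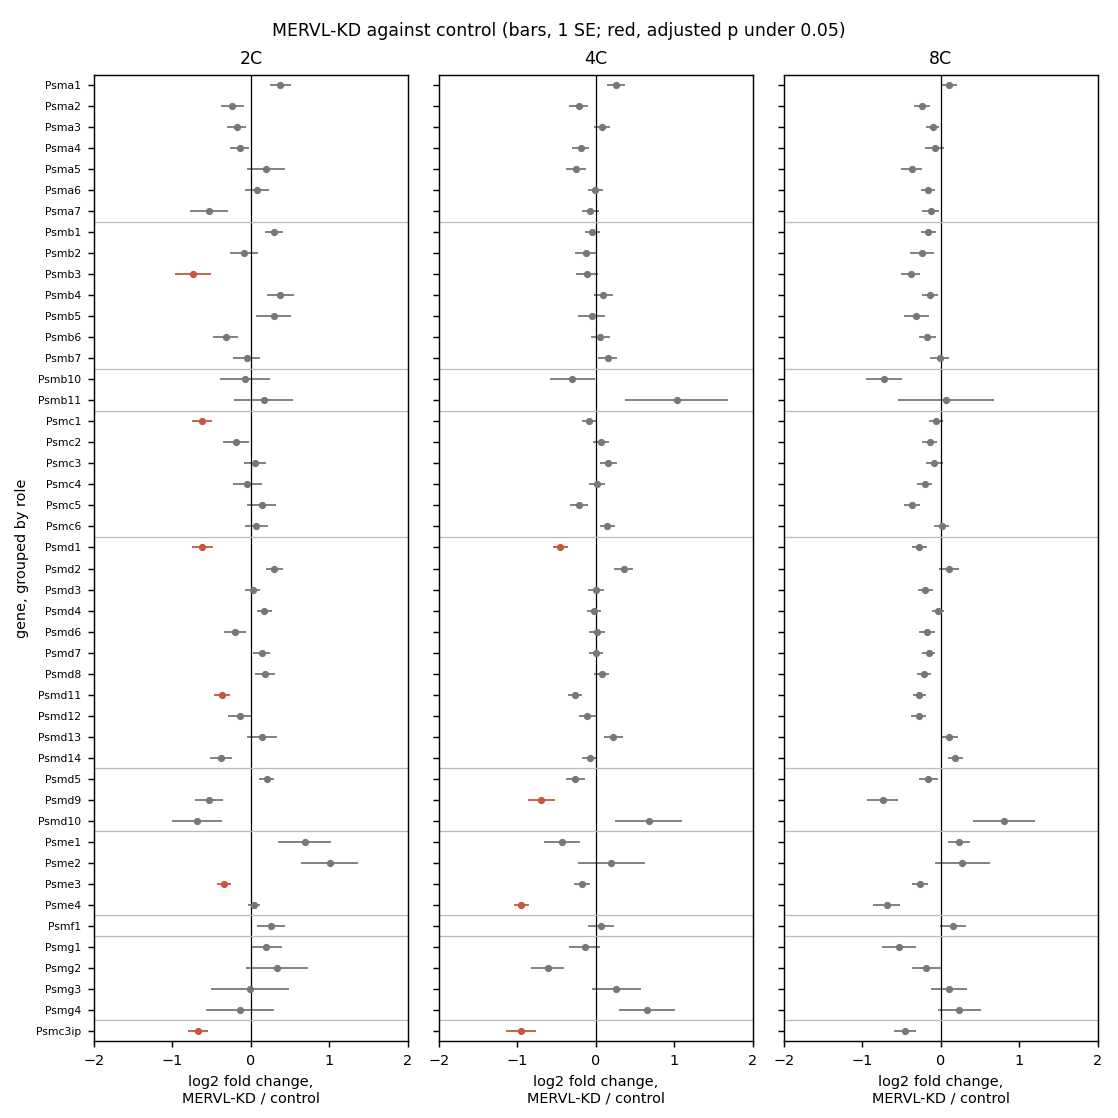
Log2 fold change of MERVL-KD against control (horizontal axes) for the proteasome genes at 2C, 4C and 8C, with bars of 1 SE; Psma8, Psmb8, Psmb9 and Psme2b are left out for low counts. Red points passed an adjusted p under 0.05: 6 at 2C, 4 at 4C and 0 at 8C, all lower in MERVL-KD, while at 8C 34 points lie left of 0.

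At 4C, 4 of 47 tested members were lower in MERVL-KD embryos (background 5.84%) and 0 higher by edgeR (4.92%) or DESeq2, with 8 at an unadjusted p under 0.05. No called member reached 2-fold (4.54%). Both MERVL-KD libraries lay below both controls for 17 members (26.4% of all genes) and above them for 10 (28.0%). The median was -0.02 over the members and 0.03 over all genes.

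Psme4 had the smallest p. It stood at 249 and 241 CPM in Ctrl 4C and at 121 and 132 CPM in MERVL-KD 4C embryos, so that its share of member counts was 3.50% and 3.77% in MERVL-KD beside 6.56% and 6.63% in control. The difference was -0.95 on the log2 scale (SE 0.09, 1.93-fold lower, adjusted p = 8.15e-05) and remained called under every alternative tried, between -1.01 and -0.89.

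Psmd1 was lower again, with 114 and 117 CPM in Ctrl 4C and 86.4 and 82.1 CPM in MERVL-KD 4C embryos (-0.45, SE 0.10, adjusted p = 0.0131), though the call ended without Ctrl 4C replicate 1 (0.0682) or replicate 2 (0.0976). Psmc3ip stood at 44.0 and 43.3 CPM against 27.1 and 17.7 CPM (-0.96, SE 0.19, adjusted p = 0.00791). Its MERVL-KD libraries differed from each other, but both were below the controls.

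Psmd9, a chaperone of the 19S base, stood at 24.9 and 31.9 CPM in Ctrl 4C and at 18.0 and 16.9 CPM in MERVL-KD 4C embryos (-0.69, SE 0.17, adjusted p = 0.0219), and lost its call without Ctrl 4C replicate 2 (-0.52, adjusted p = 0.206). It was also the lower value of the pair at 2C (22.2 and 27.7 CPM against 13.3 and 19.3 CPM, -0.53, SE 0.18, adjusted p = 0.0641) and at 8C (25.0 and 35.2 CPM against 20.5 and 15.4 CPM, -0.74, SE 0.20, adjusted p = 0.0562), without passing the test there. The groups were apart at all 3 stages. Psmg2 did not pass at 4C (-0.61, SE 0.21, adjusted p = 0.095), nor did Psmd2, the other scaffold subunit of the 19S base, which pointed the other way (0.35, SE 0.12, adjusted p = 0.0928).

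The genome of the members was searched for sites of the 3 MERVL ASOs, 20 bases each. None of the 50 genes held a site with up to 4 mismatches on the strand that would let an ASO pair with the gene's own transcript. On the other strand, the annotated span of Psmd9 (chr5:123169413-123250131, plus strand) held 1 site of each ASO, at chr5:123213588-123213607 with 0 mismatches, chr5:123212015-123212034 with 1 and chr5:123211763-123211782 with 0. Psma8 held a site of 1 ASO on the other strand with 3 mismatches, outside its exons. The Psmd9 sites, all intronic, lie 14583 to 16408 bases before the RefSeq start of Psmd9, since the annotation of the count files holds a longer transcript. Whether they bear on the lower value of Psmd9 was not tested. Of the 43 pathway genes described further on, 3 held a site with 4 mismatches on the strand that pairs with their transcript, Rad23b in an exon and Ufd1 and Stat3 outside exons, and 0 held one with up to 2 mismatches.

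At 8C no member was called by edgeR (backgrounds 3.56% lower, 1.50% higher and 1.70% at 2-fold in either direction), although 14 of 47 had an unadjusted p under 0.05 and DESeq2 called 2, both lower. The values leaned one way, with 34 of 47 below 0 and 13 above, while 50.5% of all genes lay above 0. Their median was -0.16, beside 0.01 over all genes. TMM factors over the 12 libraries were 0.874 and 0.897 in Ctrl 8C and 1.01 and 0.940 in MERVL-KD 8C libraries. Unscaled, the members took 0.506% and 0.516% of gene counts in Ctrl 8C and 0.502% and 0.499% in MERVL-KD 8C embryos. How far the lean depends on the scaling is not given here. Both MERVL-KD libraries lay below both controls in 28 of 47 members (25.9% of all genes) and above in 7 (23.6%). All 7 beta-ring genes had negative values, from -0.38 for Psmb3 (SE 0.12, adjusted p = 0.105) to -0.01 for Psmb7 (SE 0.12). The number of calls rested on single libraries, and changed without either MERVL-KD 8C library or without Ctrl 8C replicate 1. The backgrounds above belong to the main fit alone, so calls under other settings, DESeq2 included, are not set against a share of all genes. The summed markers of 8C embryos and morulae were lower in the same MERVL-KD 8C libraries (599 to 605 against 775 to 800 CPM). Krt18 alone among them was higher (6.18 and 5.49 against 4.93 and 3.62 CPM). The part of these markers in the values was not tested.

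Psme4 at 8C stood at 192 and 221 CPM in control and 153 and 102 CPM in MERVL-KD embryos, apart but with a wide spread in MERVL-KD (-0.69, SE 0.17, adjusted p = 0.0643). Psmc3ip stood at 38.9 and 39.0 CPM against 30.4 and 25.9 CPM (-0.46, SE 0.14, adjusted p = 0.0817). Psmb10 stood at 8.02 and 7.64 CPM against 4.65 and 4.77 CPM (-0.72, SE 0.23, adjusted p = 0.0998), also without overlap and without passing.

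The test of whether the MERVL-KD difference itself changed from 2C to 4C passed for 2 of 49 members (background 4.16% in either direction). This test used 1 fit of all 12 libraries. Its values are therefore not the exact difference of the stage values, which came from separate fits of 4 libraries. For Psme4 the difference became more negative (-0.91, SE 0.19, adjusted p = 0.011), with 0.04 at 2C and -0.95 at 4C in the separate fits. This call ended without Ctrl 2C replicate 1 (adjusted p = 0.0774) or MERVL-KD 4C replicate 1 (0.0502). For Psmc1 it became less negative (0.62, SE 0.14, adjusted p = 0.0152), with -0.62 at 2C and -0.08 at 4C in the separate fits. Its 4C libraries were at 138 and 130 CPM in control and 120 and 133 CPM in MERVL-KD embryos. That call ended without 5 of the 8 libraries, namely Ctrl 2C replicate 2, both MERVL-KD 2C libraries, Ctrl 4C replicate 2 and MERVL-KD 4C replicate 2 (adjusted p from 0.0505 to 0.183), and with library size alone (0.31, adjusted p = 0.22). From 4C to 8C the difference changed for none of 49 members by edgeR or DESeq2, 0 of them at an unadjusted p under 0.05 (background 0.624%).

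**Figure D4:**
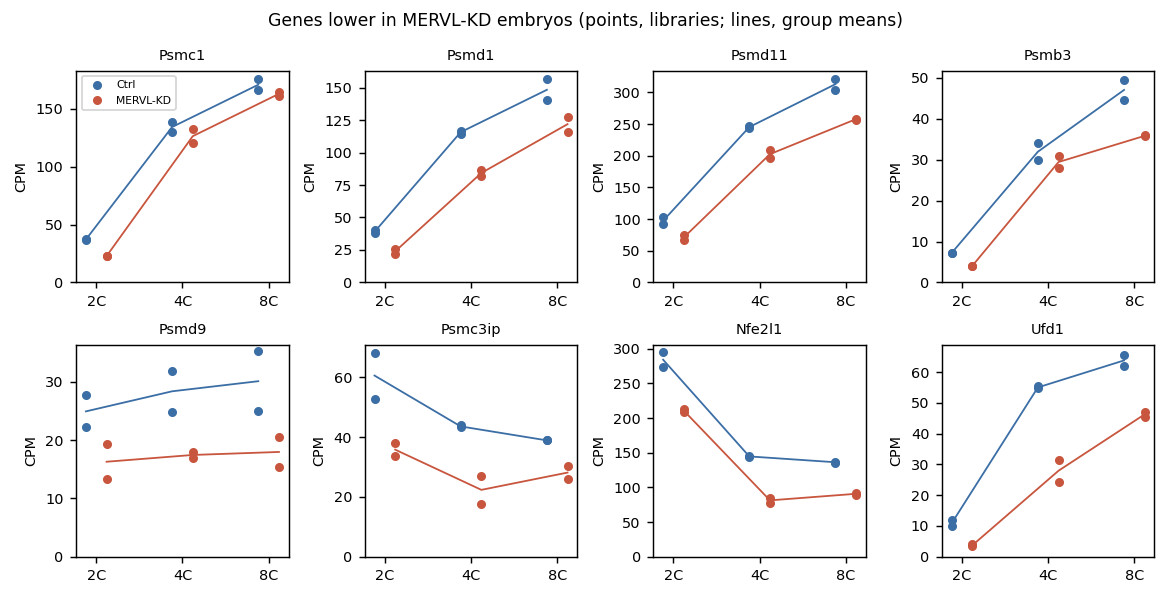
CPM (vertical axes, from 0) by stage of 6 proteasome-named genes called lower in MERVL-KD at 2C or 4C and of Nfe2l1 and Ufd1, in control (blue) and MERVL-KD (red) embryos. Points are libraries and lines join the means of 2 libraries; Psmc1 is apart at 2C (37.0 and 37.4 against 22.8 in both) and overlaps at 4C, whereas Nfe2l1 is apart at all 3 stages.

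The wider pathway was read from lists of 43 genes found in the files. In the 10 remaining proteasome parts and cofactors, 7 rose from 2C to 4C in control embryos (26.4% of all genes) and 3 fell (28.7%), the latter being Ecpas, a proteasome adaptor (-1.29, SE 0.09), Akirin2, which brings proteasomes into the nucleus (-1.07, SE 0.09), and Zfand2a (-0.26, SE 0.10). Usp14, a deubiquitinase that docks on the 19S particle, rose the most (3.11, SE 0.11), followed by the assembly factor Pomp (2.75, SE 0.16). In MERVL-KD embryos Akirin2 was the only one called at 2C, at 152 CPM in both libraries against 200.3 and 201 CPM (-0.32, SE 0.08, adjusted p = 0.0188), and this call ended with library size alone (-0.03, adjusted p = 0.835) and without Ctrl 2C replicate 1 (0.0607). Usp14 was higher in MERVL-KD at 4C, with 165 and 182 CPM against 121 and 122 CPM (0.52, SE 0.10, adjusted p = 0.0056), and at 8C, with 196 and 195 CPM against 146 and 153 CPM (0.40, SE 0.09, adjusted p = 0.0216), the latter call ending without either Ctrl 8C library (adjusted p = 0.147 and 0.072). Txnl1, a thioredoxin bound to the 19S particle, was higher at 4C (0.38, SE 0.11, adjusted p = 0.0449), with adjusted p up to 0.284 over the alternatives.

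Of 12 regulators of proteasome transcription, Nfe2l1 was the only gene called in MERVL-KD embryos at all 3 stages. It had 274 and 295 CPM in Ctrl 2C and 208 and 213 CPM in MERVL-KD 2C embryos (-0.35, SE 0.08, adjusted p = 0.00975), 145 CPM in both Ctrl 4C libraries and 85.4 and 77.4 CPM in MERVL-KD 4C embryos (-0.83, SE 0.10, adjusted p = 0.000344), and 136 and 137 CPM in Ctrl 8C and 92.3 and 89.5 CPM in MERVL-KD 8C embryos (-0.58, SE 0.09, adjusted p = 0.00457). The groups did not overlap at any stage. The 2C call ended with library size alone (-0.06, adjusted p = 0.654) and without Ctrl 2C replicate 2 (0.0558). From 2C to 4C in control embryos, where the core subunits rose, Nfe2l1 fell (-0.97, SE 0.09), and so did its relative Nfe2l2 (-1.42, SE 0.22) and Ngly1 (-2.40, SE 0.29), the glycanase that processes its product. In that list 6 of 12 genes fell (28.7% of all genes) and 2 rose (26.4%) over this step. Those that rose were Vcp (1.36, SE 0.10) and Nfyb (1.39, SE 0.11), which encodes a subunit of NF-Y. At 2C Nfya, a subunit of NF-Y, was lower in MERVL-KD (-0.31, SE 0.09, adjusted p = 0.034) and Ddi2, the protease that cleaves the Nfe2l1 product, was higher (0.29, SE 0.09, adjusted p = 0.0348), with adjusted p up to 0.891 and 0.374 over the alternatives. At 4C Vcp, the segregase that extracts ubiquitinated proteins, was higher (0.35, SE 0.09, adjusted p = 0.0287), as was Foxo4 (0.87, SE 0.24, adjusted p = 0.0384), and both lost their calls without single libraries (adjusted p up to 0.308 and 0.219).

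Of 13 genes of ubiquitin, its activating enzymes and shuttle factors, 1 was called higher (6.70% of all genes) and 4 lower (7.39%) at 2C in MERVL-KD. Ufd1 and Rad23b are among the genes with a 4-mismatch ASO site given above, and the part of those sites was not tested. Ufd1, a cofactor of Vcp, was lower at 2C, with 9.92 and 11.9 CPM in control and 4.11 and 3.37 CPM in MERVL-KD embryos (-1.46, SE 0.22, 2.74-fold lower, adjusted p = 0.000348). It was lower too at 4C, with 54.7 and 55.4 CPM against 31.6 and 24.4 CPM (-0.97, SE 0.15, adjusted p = 0.00173), and at 8C, with 65.7 and 61.9 CPM against 45.6 and 47.1 CPM (-0.45, SE 0.11, adjusted p = 0.0397), where the call ended without either Ctrl 8C library (0.225 and 0.0925). Rps27a, which encodes ubiquitin fused to a ribosomal protein, stood at 67.4 and 78.4 CPM in Ctrl 2C and 34.2 and 39.8 CPM in MERVL-KD 2C embryos (-0.90, SE 0.12, adjusted p = 8.75e-05), and was not called at 4C (-0.05, SE 0.09, adjusted p = 0.806). Uba1, the main activating enzyme (-0.38, SE 0.09), and the shuttle factor Rad23b (-0.49, SE 0.08) were also lower at 2C, and Ubqln4, another shuttle factor, was higher (0.75, SE 0.15). With library size alone Uba1 and Rad23b were no longer called (adjusted p = 0.485 and 0.0861). At 4C the polyubiquitin gene Ubb (0.44, SE 0.10, adjusted p = 0.0194) and Ubqln2 (0.65, SE 0.13, adjusted p = 0.00922) were higher, with adjusted p up to 0.125 and 0.0797 over the alternatives.

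Among 8 genes of MHC class I antigen processing, which uses peptides from the immunoproteasome, B2m (0.61, SE 0.18, adjusted p = 0.0384) and Irf1, an activator of immunoproteasome genes (0.67, SE 0.17, adjusted p = 0.016), were higher in MERVL-KD at 2C, with adjusted p up to 0.175 and 0.199 over the alternatives. Irf1 was at 1.11 and 0.903 CPM in Ctrl 4C and 3.16 and 2.98 CPM in MERVL-KD 4C embryos (1.61, SE 0.41, adjusted p = 0.0271). Tap1, the peptide transporter, was higher at 4C (1.96, SE 0.48, adjusted p = 0.0232) at 2.31 and 2.89 CPM against 0.511 and 0.834 CPM. The 4C calls of Irf1 and Tap1 reached adjusted p of 0.0809 and 0.0793 when single libraries were left out, and no gene of the list was called at 8C by edgeR.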

How the data were processed

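Total RNA-seq libraries (SMART-Seq Stranded kit, random hexamers, depletion of ribosomal fragments, paired reads) were read from 12 files. The authors aligned reads with STAR 2.5.3a to GRCm38/mm10, kept unique alignments, counted them with featureCounts per GENCODE gene and per RepeatMasker family, and deposited raw counts, 1 table per library. The strand setting of the counting is not given in the sources used here. Between 71.8% and 74.7% of low counts were even, so both mates were mostly counted, and counting error is understated. Counts carry no molecular identifiers and cover counting error only. Replicates differed by more than sampling noise (chi-square per degree of freedom 14.7 to 25.8).

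From these counts, edgeR 4.0.16 (R 4.3.3) was run with its default filter on low counts, TMM scaling and a robust quasi-likelihood test with Benjamini-Hochberg adjustment over genes and repeat families. MERVL-KD was compared with control within each stage in a fit of 4 libraries; stage contrasts and their difference between treatments came from 1 fit of 12 libraries. RPKM used the exon lengths in the files. DESeq2 1.42.0, other scalings and filters, halved counts, the replicate number as a block and leaving out each library were alternatives. The fits were tested on simulated data.

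Library values, in the groups under discussion and not always in every group, are given for members called in MERVL-KD. They are also given for the largest called rise and fall over the control stages in each role. The same holds for Psmb8, Psmb9, Psmb10, Psmb11, Psma8, Psmc3ip and Psme4, and for the members with the highest and lowest RPKM. Pathway genes are named where called in MERVL-KD. A limit of 4 per list had been set, and it was exceeded for the ubiquitin genes and for the regulators of proteasome transcription. The members and lists were chosen with earlier results of these data known. Genes named for a role beyond this rule were chosen after their values were seen. The list symbols Shfm1, AI314180 and Paaf1 were not used here under those names, and the oocyte list was read without H1foo. Motifs were searched with Python 3.11.15. ATAC-seq samples were not analysed here.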

Additional observations from a re-analysis of the deposited data

Results flagged for a closer look

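Psme4, Psmc1 and Rps27a had a MERVL-KD difference that changed from 2C to 4C by the interaction test of edgeR over 12 libraries. Psme4 changed by -0.91 on the log2 scale (SE 0.19, adjusted p = 0.011), with adjusted p from 0.00043 to 0.0774 over the alternatives. Psmc1 changed by 0.62 (SE 0.14, adjusted p = 0.0152), with adjusted p from 0.00111 to 0.22. Rps27a changed by 0.93 (SE 0.14, adjusted p = 0.000575) and was called under every alternative tried, with adjusted p up to 0.00658. Both MERVL-KD libraries were below both controls for Psmc1 and Rps27a at 2C and for Psme4 at 4C. The oocyte markers summed to 1006 and 1064 CPM in Ctrl 2C and 627 to 721 CPM in MERVL-KD 2C embryos, and their part in these changes was not tested.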

How the results depend on the processing

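The number of proteasome genes changed in MERVL-KD 2C embryos was 6, and became 14 (13 higher, 1 lower) with library size alone and 0 when a 2-fold change was also asked for, with 5 to 7 without 1 library. At 4C it was 4, with 0 at 2-fold and 2 to 6 without 1 library. At 8C it was 0, with 2 when every gene with at least 1 count was tested, 1 with at least 10 counts in every library, 2 with DESeq2, 1 with a non-robust fit, 1 with the replicate block, 2 with all 12 libraries in 1 fit, and 0 to 10 without 1 library. Control embryos from 4C to 8C gave 12, with 0 by library size alone, 23 with DESeq2, 0 at 2-fold, 19 with only the 4 libraries compared and 0 to 2 without 1 library. MERVL-KD embryos from 4C to 8C gave 3, with 1, 8, 0, 1 and 0 to 3. The interaction from 2C to 4C gave 2, with 4 by library size alone and 1 to 2 without 1 library. The causes were not tested. The counts from 2C to 4C stayed between 36 and 41 in control and between 37 and 41 in MERVL-KD embryos, and the interaction from 4C to 8C stayed at 0. Replicate numbers did not mark pairs (correlations of same-numbered deviations -0.0403, 0.0101 and 0.0272 at 2C, 4C and 8C). The replicate block gave 7 calls at 2C beside 6, 4 at 4C beside 4 and 40 from 2C to 4C in control embryos beside 40, and ended the calls of Psmb3, B2m, Ddi2 and Nfya at 2C and of Txnl1 and Foxo4 at 4C. Where 1 library was left out, the lone sample was assumed to vary like the others. None of 196 gene results changed sign, and 139 stayed called throughout.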
